A study of Mus musculus with 8 samples.

Results

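The integrin chains of macrophages were followed as 10 genes of 50615 in a table of expected counts, namely the leukocyte α chains Itgal, Itgam and Itgax with their partner Itgb2, the matrix-binding chains Itga4, Itga5, Itga6 and Itgav, and the β chains Itgb1 and Itgb3. They were chosen by name as integrin α and β chains of macrophages, not by a cut on their values. Earlier results of these data were known when they were chosen. All 10 passed the filter on low counts. RNA had been sequenced from bone marrow-derived macrophages (BMDMs) of C57BL/6 mice, which had differentiated over 6 days in M-CSF (20 ng/ml). The Ncoa6-KO mice carried floxed Ncoa6 and LysM-Cre, which is expressed from the Lyz2 locus in myeloid cells, and the Ncoa6-sufficient mice, labelled WT, carried floxed Ncoa6 without Cre. Both genotypes were studied in medium alone and after LPS (100 ng/ml, 4 h) and a further 2 h with monosodium urate (MSU) crystals (200 µg/ml), so that the effects of LPS and MSU cannot be told apart. This gave 4 groups of 2 libraries, the libraries of a group from different mice, whose ages are not given in the sources used here.

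Integrins are receptors made of 1 α and 1 β chain that bind matrix proteins or counter-receptors on other cells and link them to actin. The β2 chain (CD18) is made by leukocytes and pairs with αL (LFA-1, which binds ICAMs), αM (CD11b, Mac-1, which binds the complement fragment iC3b, fibrinogen and ICAM-1) and αX (CD11c). The β1 chain pairs with α4 (which binds VCAM-1 and fibronectin), α5 (the fibronectin receptor), α6 (a laminin receptor) and αv, while αv also pairs with β3, β5 and β8 to bind vitronectin, osteopontin or latent TGF-β. The unpaired chains are held inside the cell, so the RNA of a chain is not the amount of receptor at the surface.

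The 8 libraries held 25281955 to 33673552 counts. Normalized counts, given below, were scaled to an effective library of 29332189 counts with edgeR's TMM factors, which were 0.766 to 0.829 in the 4 LPS + MSU libraries and 1.23 to 1.29 in the 4 libraries in medium, so that values set across culture conditions rest on this scaling more than values between genotypes do. Ncoa6 was at 1515 and 1405 normalized counts in Ncoa6-sufficient BMDMs in medium and at 1297 and 1173 with LPS + MSU, against 784 and 622, and 563 and 526, in Ncoa6-KO BMDMs. These counts cover the whole gene, and in both culture conditions the Ncoa6-KO libraries were the lower ones. The 8 macrophage markers summed to 8320 to 18300 CPM (counts scaled to a common library total), with Lyz2, the gene that carries Cre, at 111990 to 129380 normalized counts in the Ncoa6-KO libraries and at 209890 to 272100 in the others and accounting for much of that sum. The neutrophil markers, of leukocytes that also carry αM and β2, summed to 15 to 33.8 CPM. The 8 T and NK cell markers, of cells with αL, summed to at most 0.0945 CPM, with 6 of the 8 at 0 in every library. In bulk libraries, fewer cells of a type and less RNA per cell cannot be told apart.

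On GRCm38, Itgal (chr7:127296260-127335138), Itgam (chr7:128062640-128118491) and Itgax (chr7:128129547-128150657) lie on the forward strand of chromosome 7, where Itgax follows Itgam as its neighbour. Itga6 (chr2:71745616-71858416), Itga4 (chr2:79255426-79333123) and Itgav (chr2:83724397-83806916) lie on chromosome 2, which also carries Ncoa6. Itga5 lies on the reverse strand of chromosome 15, and Itgb1, Itgb2 and Itgb3 on the forward strands of chromosomes 8, 10 and 11. Itgam shares 3450 bases of exon with Gm49368 on the same strand, and Itga4 shares 1124 and Itgav 634 bases with Cerkl and Gm13684 on the opposite strand. The counts of these 3 chains are uncertain to the extent that reads were divided between the genes, since the strand setting of the counting was not given.

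RefSeq promoter windows of GRCm38, from 250 bases before to 50 after the start, were at hand for 6 of the 10 genes, all but Itgal, Itga6, Itgb2 and Itgb3. Itgam and Itgax are shown because they are neighbours that were both lower in Ncoa6-KO BMDMs with LPS + MSU, and Itga4, Itga5 and Itgav because they rose together with LPS + MSU. Capitals mark GAGGAA, the purine-rich core that ETS factors such as PU.1 bind, and TGANTCA, the AP-1 site, each searched on both strands. The windows read 5′ to 3′ in the direction of the gene, and lie at chr7:128062390-128062689 (Itgam), chr7:128129300-128129599 (Itgax), chr2:79255176-79255475 (Itga4), chr15:103366742-103367041 (Itga5, reverse strand) and chr2:83724147-83724446 (Itgav).
Itgam: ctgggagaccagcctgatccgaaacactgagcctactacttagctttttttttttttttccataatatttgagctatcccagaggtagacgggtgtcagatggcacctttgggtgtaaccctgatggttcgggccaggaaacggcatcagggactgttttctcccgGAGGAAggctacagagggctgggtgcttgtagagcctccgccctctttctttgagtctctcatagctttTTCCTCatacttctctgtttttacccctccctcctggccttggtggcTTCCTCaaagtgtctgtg
Itgax: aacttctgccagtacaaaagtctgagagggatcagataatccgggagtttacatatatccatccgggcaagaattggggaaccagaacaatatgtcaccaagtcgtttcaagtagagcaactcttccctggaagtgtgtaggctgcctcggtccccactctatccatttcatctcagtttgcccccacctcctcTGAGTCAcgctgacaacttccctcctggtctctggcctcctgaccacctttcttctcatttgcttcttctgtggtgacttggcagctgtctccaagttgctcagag
Itga4: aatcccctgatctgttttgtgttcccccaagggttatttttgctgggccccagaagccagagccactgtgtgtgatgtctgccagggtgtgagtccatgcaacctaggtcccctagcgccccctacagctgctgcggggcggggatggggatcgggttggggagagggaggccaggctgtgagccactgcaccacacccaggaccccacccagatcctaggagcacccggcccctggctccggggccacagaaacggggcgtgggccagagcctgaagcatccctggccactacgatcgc
Itga5: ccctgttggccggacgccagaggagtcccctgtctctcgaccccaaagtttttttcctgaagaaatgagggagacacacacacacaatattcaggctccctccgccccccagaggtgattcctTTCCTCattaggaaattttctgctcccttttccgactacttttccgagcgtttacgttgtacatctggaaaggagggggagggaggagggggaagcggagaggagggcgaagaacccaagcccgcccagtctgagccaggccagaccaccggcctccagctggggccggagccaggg
Itgav: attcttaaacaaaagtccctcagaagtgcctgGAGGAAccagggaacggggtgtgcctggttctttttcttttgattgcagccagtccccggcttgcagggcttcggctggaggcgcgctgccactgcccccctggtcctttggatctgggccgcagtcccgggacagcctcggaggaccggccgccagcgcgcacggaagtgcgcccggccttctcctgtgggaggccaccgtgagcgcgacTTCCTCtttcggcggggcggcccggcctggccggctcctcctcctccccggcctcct
Itgam held GAGGAA or its complement at 3 positions, which began at -84, -15 and 33 from the start. Itgav held it at -218 and -7, Itga5 at -127 and Itgb1, whose window is not shown, at -9, so that 4 of the 6 windows had a match, against 28.3% of all 32851 windows of this length. The AP-1 letters were found in Itgax alone of the 6, at -56, and in 7.81% of all windows. The NF-κB consensus was found in none of the 6 windows and in 8.46% of all windows, which says only that these letters are not in these 300 bases.

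Per kilobase of exon, Itgb2 and Itgb1 were the 2 most abundant of the 10 chains in every group, and Itgb3 was the least abundant in 3 groups. Levels between genes are given here in normalized CPM per kilobase of the union of exons (CPM per kb). In Ncoa6-sufficient BMDMs in medium, Itgb2 was highest with a level of 325 ± 30.2 (SD, n = 2), before Itgb1 with 251 ± 8.7 and Itgam with 146 ± 12. Itga5 (39.4 ± 5.23) and Itga6 (31.8 ± 0.247) followed, then Itga4 (13.1 ± 0.339) and Itgal (12.6 ± 2.05), whose libraries overlapped, and then Itgav (8.55 ± 1.49), Itgax (5.38 ± 0.017) and Itgb3 (3.33 ± 0.173). Itga4 and Itgal were the neighbours in this order that did not differ beyond their spread. With the length of the longest transcript in place of the union of exons, Itga6 came before Itga5 in medium in both genotypes, since its annotated exons add up to 9025 bases and its longest transcript to 4310.

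With LPS + MSU, Itgb1 (423 ± 8.06 CPM per kb) came before Itgb2 (372 ± 34) in Ncoa6-sufficient BMDMs and Itga5 (230 ± 20.2) before Itgam (162 ± 14.2), while Itgb3 stayed last at 0.794 ± 0.104. In Ncoa6-KO BMDMs in medium, Itgb3 (8.51 ± 0.281) had rank 7 of 10, with libraries that overlapped those of Itgav (7.62 ± 2.09), and Itgav overlapped Itgal (6.91 ± 0.18). With the longest transcript as length, Itgb3 had rank 9 there. In LPS + MSU-treated Ncoa6-KO BMDMs, Itgb2 (427 ± 67.8) and Itgb1 (372 ± 21.7) overlapped, and Itgb3 was again last, with a level of 2.34 ± 0.825.

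The first question was which chains LPS + MSU moved. Whether groups overlap is given below as a description only. With 2 libraries against 2, no exact permutation p falls below 0.333, and the share of all genes without overlap was not counted. In Ncoa6-sufficient BMDMs, 8 of the 10 chains changed, 6 up and 2 down, at an adjusted p under 0.05 by edgeR's quasi-likelihood test over all 17625 genes. Of all genes, 55.2% were called in this comparison, 24.7% as higher and 30.5% as lower, so a call as such did not set the integrins apart. The median log2 fold change of the 10 chains was 0.57 and that of all genes -0.12. In Ncoa6-KO BMDMs, 7 chains changed, 5 up and 2 down, against 53.1% of all genes, 25.2% higher and 27.9% lower, with a median of 0.46 for the chains and of -0.07 for all genes. Scaling by total counts, an alternative added after the data had been seen, lowered the medians of all genes to -0.78 and -0.71.

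The fibronectin and VCAM-1 binding α chains rose most. Itga4 was at 5451 and 5256 normalized counts in Ncoa6-sufficient BMDMs in medium and at 37529 and 34543 with LPS + MSU, and at 5003 and 4086 against 36570 and 29426 in Ncoa6-KO BMDMs. The libraries with LPS + MSU lay far above those in medium in both genotypes, by log2 fold changes of 2.75 (SE 0.146, adjusted p = 3.65e-08) and 2.86 (SE 0.147, adjusted p = 2.86e-08). Itga5 went from 5168 and 6237 normalized counts to 31224 and 35342 in Ncoa6-sufficient BMDMs and from 4767 and 5471 to 34014 and 39421 in Ncoa6-KO BMDMs. Its rise was 5.84-fold and 7.17-fold (log2 fold change 2.55, adjusted p = 5.58e-08, and 2.84, adjusted p = 2.74e-08). Itgav, the vitronectin receptor α chain, was at 2360 and 3025 normalized counts in medium and at 9432 and 10932 with LPS + MSU in Ncoa6-sufficient BMDMs. In Ncoa6-KO BMDMs it was at 1935 and 2867 in medium and at 11426 and 11762 with LPS + MSU. The groups did not overlap, and the log2 fold changes were 1.92 (SE 0.18, adjusted p = 3.64e-06) and 2.27 (SE 0.183, adjusted p = 1.07e-06).

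Of the β2 integrin chains, αL rose and the others moved little, with calls that changed with the method. Itgal was at 2155 and 2712 normalized counts in medium and at 11876 and 11740 with LPS + MSU in Ncoa6-sufficient BMDMs, a 4.85-fold rise (log2 fold change 2.28, SE 0.132, adjusted p = 7.07e-08). In Ncoa6-KO BMDMs it went from 1308 and 1357 to 5671 and 6840, a 4.7-fold rise (adjusted p = 9.3e-08), and stayed below the Ncoa6-sufficient libraries under both conditions. Itgam, by level per kb the first or second α chain in each group, had 20237 and 22737 normalized counts in medium and 22323 and 25290 with LPS + MSU in Ncoa6-sufficient BMDMs. These groups overlapped, and the log2 fold change of 0.15 (95% interval -0.11 to 0.41, adjusted p = 0.312) did not pass the test. For Itgb2, the log2 fold changes were 0.19 (-0.12 to 0.51) and 0.22 (-0.09 to 0.54) in the Ncoa6-sufficient and Ncoa6-KO BMDMs, and neither passed, with adjusted p = 0.276 and 0.214. Itgax passed in Ncoa6-sufficient BMDMs, where it was at 760 and 756 normalized counts in medium and at 991 and 1005 with LPS + MSU (log2 fold change 0.40, SE 0.146, adjusted p = 0.038). That call was lost without either library of medium or of LPS + MSU, with adjusted p of 0.0694 to 0.124. In Ncoa6-KO BMDMs, Itgax had a log2 fold change of 0.24 and adjusted p = 0.213, and adjusted p = 0.045 without library 2 in medium. DESeq2 in place of edgeR called Itgam and Itgb2 higher in Ncoa6-sufficient BMDMs, at 0.26 and 0.31 (adjusted p = 0.0474 and 0.0469). With scaling by total counts, Itgam, Itgax and Itgb2 took the other direction in both genotypes. Their log2 fold changes were then -0.52, -0.27 and -0.48 in Ncoa6-sufficient BMDMs (adjusted p = 0.00258, 0.141 and 0.0147). In Ncoa6-KO BMDMs they were -0.59, -0.40 and -0.41 (adjusted p = 0.00129, 0.0482 and 0.0311).

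Itgb1, the common partner of α4, α5, α6 and αv, rose by a smaller fold than Itga4, Itga5 and Itgav. It was at 29351 and 30829 normalized counts in medium and at 49913 and 51287 with LPS + MSU in Ncoa6-sufficient BMDMs, and at 27862 and 27429 against 46403 and 42719 in Ncoa6-KO BMDMs. The log2 fold changes were 0.75 (SE 0.109, adjusted p = 0.000124) and 0.69 (SE 0.109, adjusted p = 0.000253), and with scaling by total counts they were 0.08 and 0.05 and were not called. Itga6 and Itgb3 fell. Itga6 went from 8468 and 8375 normalized counts to 3743 and 3619 in Ncoa6-sufficient BMDMs and from 6487 and 5743 to 2631 and 2521 in Ncoa6-KO BMDMs, with log2 fold changes of -1.19 (adjusted p = 1.06e-06) and -1.25 (adjusted p = 8.25e-07). The 2 culture conditions did not overlap in either genotype, and both falls were called under every alternative run.

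**Figure D1:**
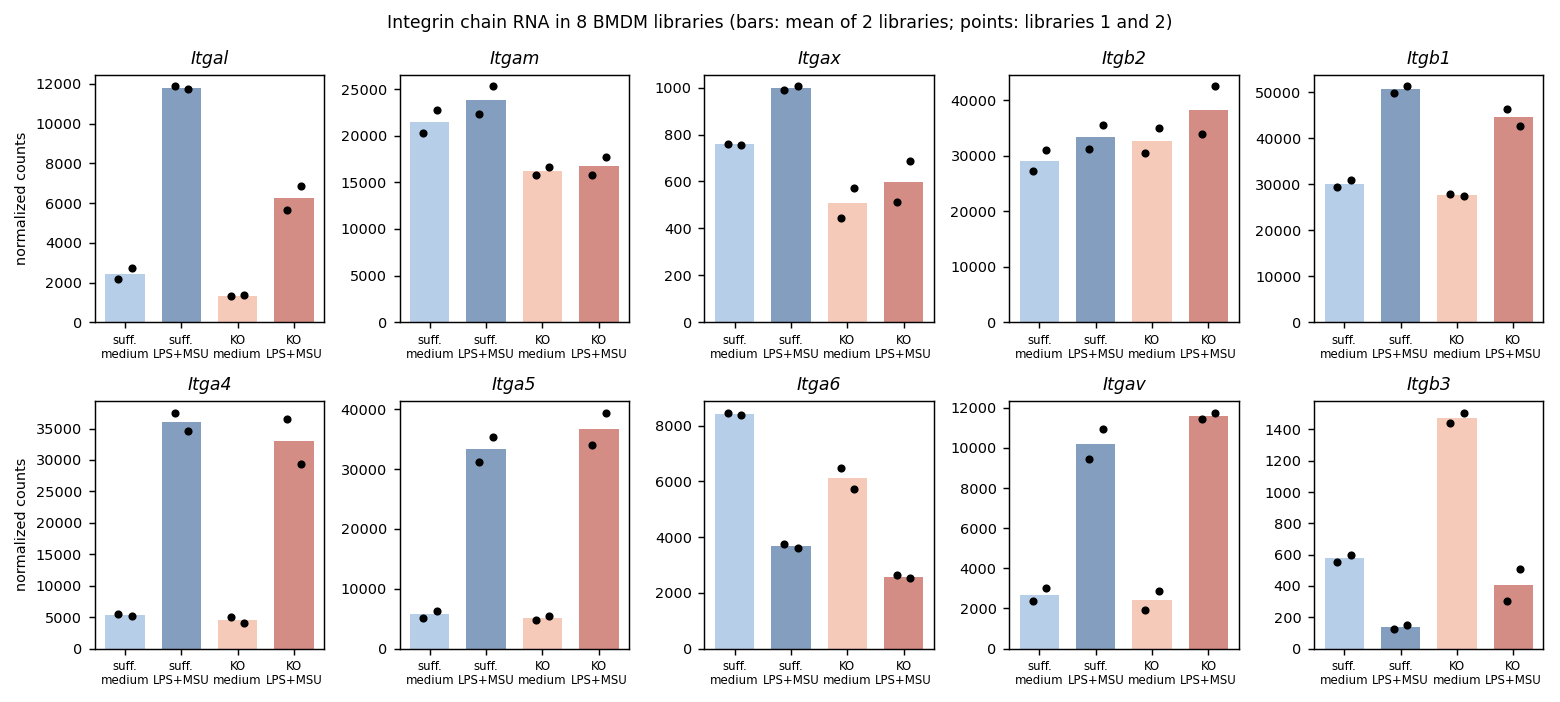
Normalized counts of the 10 integrin chains in the 4 groups (suff., Ncoa6-sufficient), each panel with its own linear axis from 0. Bars give the mean of 2 libraries and points the libraries. Itga4, Itga5, Itgav and Itgal stand far higher with LPS + MSU in both genotypes, Itga6 and Itgb3 stand lower, and Itgb3 is highest in Ncoa6-KO BMDMs in medium, with 1439 and 1508 normalized counts.

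The second question was which chains differed between the genotypes. In medium, 3 of the 10 chains were called, Itgb3 as higher and Itgal and Itga6 as lower in Ncoa6-KO BMDMs, against 1.88% of all genes, 0.573% called higher and 1.3% called lower. With LPS + MSU, 5 chains were called, Itgb3 as higher and Itgal, Itgam, Itgax and Itga6 as lower, against 3.59% of all genes, 1.96% higher and 1.63% lower. The median log2 fold change of the 10 chains was -0.20 in medium and -0.16 with LPS + MSU, and that of all genes was -0.03 and 0.000392.

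Itgb3, the β chain of the vitronectin receptor that macrophages share with osteoclasts and platelets, was the chain that was higher in Ncoa6-KO BMDMs. It was at 555 and 597 normalized counts in Ncoa6-sufficient and at 1439 and 1508 in Ncoa6-KO BMDMs in medium, a 2.56-fold difference (log2 fold change 1.36, SE 0.174, adjusted p = 0.00463). With LPS + MSU it was at 125 and 150 normalized counts in Ncoa6-sufficient and at 305 and 506 in the Ncoa6-KO libraries, a 2.94-fold difference (log2 fold change 1.56, SE 0.216, adjusted p = 0.00518). The genotypes did not overlap under either condition, and the Ncoa6-KO libraries with LPS + MSU lay below the Ncoa6-sufficient libraries in medium. LPS + MSU lowered Itgb3 in both genotypes, by log2 fold changes of -2.07 (SE 0.208, adjusted p = 6.4e-06) and -1.86 (SE 0.183, adjusted p = 5.68e-06). The genotype calls were lost without Ncoa6-sufficient library 1 of the same condition, with adjusted p = 0.112 in medium and 0.0697 with LPS + MSU, while the log2 fold changes were then 1.3 and 1.42.

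Beside Itgb3, the 8 osteoclast markers summed to 60.9 to 104 CPM, with overlapping ranges of 60.9 to 77.5 CPM in Ncoa6-sufficient and 65.1 to 82.6 in Ncoa6-KO BMDMs in medium. Their members went different ways. Ctsk, the osteoclast protease, was at 221 and 234 normalized counts in Ncoa6-sufficient and at 384 and 343 in Ncoa6-KO BMDMs in medium, whereas Dcstamp, needed for the fusion of osteoclasts, was at 145 and 138 against 63.3 and 56.2. Mmp9, another protease of the list, was at 541 and 440 against 293 and 327. Ctsk was called higher (adjusted p = 0.0213) and Dcstamp and Mmp9 lower (adjusted p = 0.0358 and 0.0245) in Ncoa6-KO BMDMs in medium. Atp6v0d2 and Acp5 were not called in medium. Atp6v0d2 was at 1248 and 895 against 1626 and 1139 in medium and at 410 and 343 against 740 and 568 with LPS + MSU. For Acp5 the values were 114 and 74 against 52.1 and 43.9, and 684 and 554 against 625 and 407. Calcr, a defining marker, was at 0 in all 4 libraries in medium and at 1.38 to 2.61 normalized counts with LPS + MSU. With LPS + MSU the list summed to 82.5 and 93.7 CPM in Ncoa6-sufficient and to 89.5 and 104 in Ncoa6-KO BMDMs, with Ctsk at 237 and 242 against 435 and 402 normalized counts and Dcstamp at 122 and 109 against 75.8 and 37.8. The 7 megakaryocyte and platelet markers summed to 0.751 to 1.2 CPM, with 2 of the 7 at 0 in every library, and Itga2b, the α chain that pairs with β3 in platelets, was at 7.51 to 22.2 normalized counts. The part of the osteoclast markers in the Itgb3 difference was not tested.

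The 3 α chains of the β2 integrins stood lower in Ncoa6-KO BMDMs, and β2 itself did not. Itgal, the LFA-1 α chain, was at 2155 and 2712 normalized counts in Ncoa6-sufficient and at 1308 and 1357 in Ncoa6-KO BMDMs in medium, 0.548 of the Ncoa6-sufficient level (log2 fold change -0.87, SE 0.129, adjusted p = 0.00946). With LPS + MSU it was at 11876 and 11740 against 5671 and 6840, or 0.53 of that level (log2 fold change -0.92, SE 0.127, adjusted p = 0.00518). Both pairs of groups were apart, and 1 library decided each call, since adjusted p was 0.0713 without Ncoa6-sufficient library 2 in medium and 0.0506 without Ncoa6-sufficient library 1 with LPS + MSU.

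Itgam, the CD11b gene, was at 22323 and 25290 normalized counts in Ncoa6-sufficient and at 15794 and 17686 in Ncoa6-KO BMDMs after LPS + MSU, a log2 fold change of -0.51 (SE 0.118, adjusted p = 0.0412). In medium it was at 20237 and 22737 against 15769 and 16611, with a log2 fold change of -0.41 (95% interval -0.67 to -0.15) that missed the threshold, at adjusted p = 0.125. Itgax, the CD11c gene, stood at 991 and 1005 normalized counts against 511 and 686 with LPS + MSU (log2 fold change -0.74, SE 0.151, adjusted p = 0.0255). In medium, Itgax was at 760 and 756 against 444 and 573, with a log2 fold change of -0.58 (-0.90 to -0.26) and adjusted p = 0.0833. The genotypes did not overlap for either gene under either condition, which also held for Itgb1, a chain that was not called. The calls of both genes with LPS + MSU were lost in 6 of the 8 fits that left out 1 library, all but those without an Ncoa6-KO library in medium, with adjusted p of 0.067 to 0.178 for Itgam and of 0.0532 to 0.146 for Itgax. Without a filter on low counts, both were also called in medium, with adjusted p = 0.0193 for Itgam and 0.000131 for Itgax. The 8 markers of dendritic cells, which also carry CD11c, summed to 7.79 and 10.2 CPM against 6.15 and 6.77 with LPS + MSU and to 0.821 and 0.947 against 1.07 and 1.11 in medium, and their part in the Itgax difference was not tested. Within 500 kb of Itgam, 43 other genes were tested, of which 0 were called in medium and 3 with LPS + MSU, Itgax, Armc5 and Hsd3b7. Of all genes, 1.88% and 3.59% were called, and Itgax is itself a chain followed here, so the count is a description only.

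Itgb2 was at 27195 and 31016 normalized counts in Ncoa6-sufficient and at 30481 and 34927 in Ncoa6-KO BMDMs in medium, and at 31150 and 35458 against 33904 and 42488 with LPS + MSU. The genotypes overlapped under both conditions, and the log2 fold changes of 0.17 (95% interval -0.15 to 0.48, adjusted p = 0.714) and 0.20 (-0.12 to 0.51, adjusted p = 0.536) did not pass. The ratio of the Itgb2 level to the summed levels of Itgal, Itgam and Itgax, in CPM per kb and so free of the scaling between libraries, was 1.97 and 1.99 in Ncoa6-sufficient and 2.91 and 3.15 in Ncoa6-KO BMDMs in medium. With LPS + MSU the ratio was 1.58 and 1.65 against 2.7 and 2.96. The 4 Ncoa6-KO libraries were above the 4 Ncoa6-sufficient libraries, but 2 libraries against 2 allow no exact permutation p below 0.333 within a condition, and no other test of the ratio was run. Itgam held 88.8% to 91.5% of the summed α level in medium and 68.8% to 76.4% with LPS + MSU, where Itgal held 25.4% and 28% in Ncoa6-sufficient and 21% and 22.1% in Ncoa6-KO BMDMs. The macrophage markers summed to 12800 and 15200 CPM in Ncoa6-sufficient and to 8320 and 9760 in Ncoa6-KO BMDMs in medium, and to 16100 and 18300 against 12100 and 13000 with LPS + MSU. Without Lyz2, the other 7 markers summed to 5680 and 5960 CPM against 4500 and 5410 in medium and to 8700 and 9080 against 7860 and 8560 with LPS + MSU, so that most of the gap between the genotypes was Lyz2. The part of these markers in the differences of the chains was not tested.

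Itga6, the laminin receptor α chain, was lower in Ncoa6-KO BMDMs under both conditions. It was at 8468 and 8375 normalized counts against 6487 and 5743 in medium and at 3743 and 3619 against 2631 and 2521 with LPS + MSU. The spread within each group was small, and the log2 fold changes were -0.46 (SE 0.0949, adjusted p = 0.0385) and -0.52 (SE 0.0967, adjusted p = 0.0186). In medium the call was lost in 7 of the 8 fits that left out 1 library, all but that without Ncoa6-KO library 1 in medium (adjusted p of 0.074 to 0.328). With LPS + MSU it was lost without any 1 of the 4 LPS + MSU libraries (0.0504 to 0.157). The log2 fold change stayed within -0.56 and -0.38 over these 8 fits in both conditions.

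For the other chains the genotypes could not be told apart by the test. The libraries of the genotypes did not overlap for Itga4 in medium, Itgav with LPS + MSU and Itgb1 under both conditions. That is a description only, since the share of all genes without overlap was not counted. Itga4 had log2 fold changes of -0.24 (95% interval -0.54 to 0.07) in medium and -0.13 (-0.43 to 0.17) with LPS + MSU, and Itga5 of -0.16 (-0.46 to 0.14) and 0.14 (-0.16 to 0.44). Itgav had -0.17 (-0.55 to 0.22) and 0.19 (-0.20 to 0.57), and Itgb1 had -0.12 (-0.36 to 0.12) and -0.18 (-0.42 to 0.06). Adjusted p was between 0.433 and 0.78 in these 8 tests, and the intervals leave room for differences of up to about the size seen for Itga6. The interaction of genotype and LPS + MSU, which asks whether the genotype difference changed with LPS + MSU, was called for 0 of the 10 chains and for 0% of all genes by edgeR. At an unadjusted p under 0.05 it was passed by 0 of the chains and by 1045 genes, and DESeq2 called 43 genes and 0 of the chains. The interaction was 0.35 (95% interval -0.19 to 0.90) for Itgav, 0.30 (-0.13 to 0.72) for Itga5 and 0.20 (-0.41 to 0.81) for Itgb3, on the log2 scale.

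**Figure D2:**
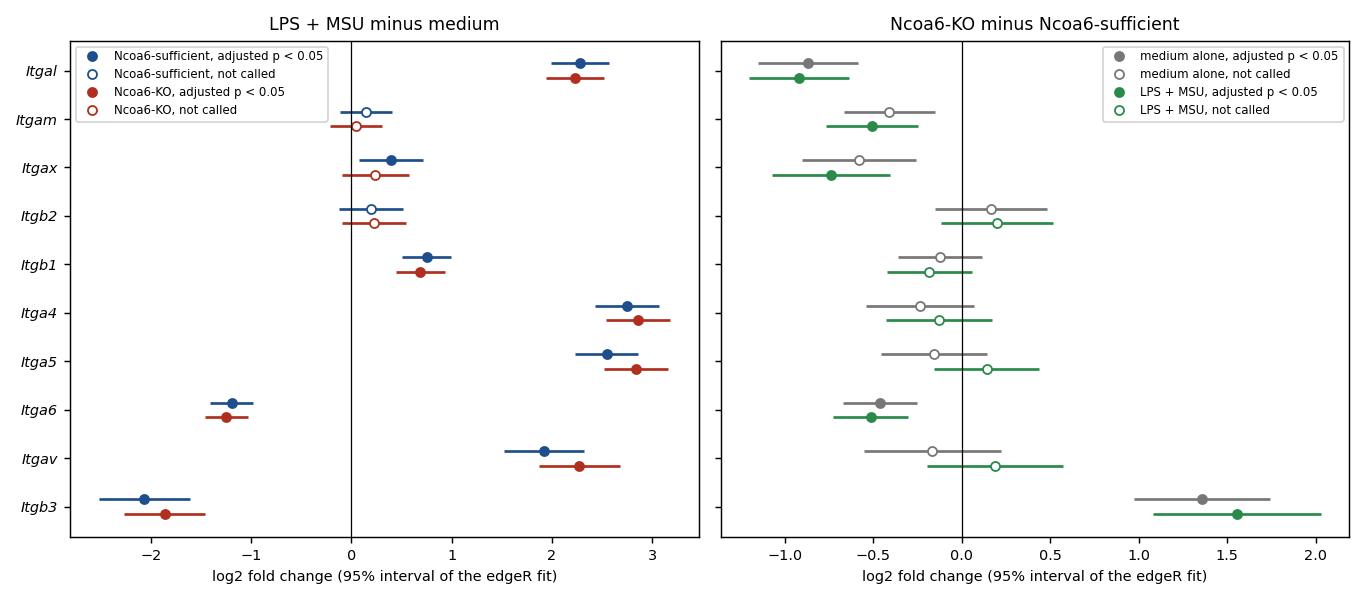
Log2 fold changes of the 10 chains with LPS + MSU in each genotype (left) and between the genotypes under each condition (right). Lines are 95% intervals of the edgeR fit and filled points were called at an adjusted p under 0.05. On the right, Itgb3 lies at 1.36 and 1.56, Itgal at -0.87 and -0.92, and the intervals of Itgb2, Itgb1, Itga4, Itga5 and Itgav cross 0.

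Of the 16 other integrin chains, 14 were tested. With LPS + MSU, 5 of the 14 rose and 1 fell in Ncoa6-sufficient BMDMs, and 3 rose and 2 fell in Ncoa6-KO BMDMs. Of all genes, 55.2% and 53.1% were called in either direction. Among the called chains, Itga2, Itga7 and Itgae in Ncoa6-sufficient and Itga2 and Itga3 in Ncoa6-KO BMDMs had low counts. Their means over the 8 libraries were 18.3 (Itga2), 7.99 (Itga7), 8.99 (Itgae) and 6.92 (Itga3) normalized counts. Itgb8, the αv partner that activates latent TGF-β, had 6 and 2 counts in the Ncoa6-sufficient and 7 and 4 in the Ncoa6-KO libraries in medium, and 1048 and 1046, and 1826 and 1499 counts, with LPS + MSU. The fitted log2 fold changes of 8.763 and 8.997 (adjusted p = 2.86e-10 and 2.17e-10) rest on summed counts of 8 and 11 in medium, with exact Poisson 95% intervals of 3.45 to 15.8 and 5.49 to 19.7 that cover counting error only. With LPS + MSU, Itgb8 was at 1452 and 1441 normalized counts in Ncoa6-sufficient and at 2386 and 2097 in Ncoa6-KO BMDMs, a log2 fold change of 0.63 (SE 0.107, adjusted p = 0.0125). That call was lost without any 1 of the 4 LPS + MSU libraries, with adjusted p of 0.0554 to 0.119.

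Itgb5, another αv partner, fell with LPS + MSU by log2 fold changes of -0.59 (adjusted p = 0.000335) and -0.48 (adjusted p = 0.00157). Set beside each other in CPM per kb, the levels of the αv partners β5, β3 and β8 were 48.7, 3.33 and 0.00959 in Ncoa6-sufficient BMDMs in medium and 32.4, 0.794 and 4.46 with LPS + MSU. In Ncoa6-KO BMDMs they were 47.3, 8.51 and 0.0129 in medium and 34.01, 2.34 and 6.91 with LPS + MSU. So β3 stood above β8 in medium and below it with LPS + MSU in both genotypes, and β5 was the most abundant of the 3 in each group. Itga9, which pairs with β1, rose in Ncoa6-sufficient BMDMs from 175 and 147 to 546 and 472 normalized counts (log2 fold change 1.66, adjusted p = 1.8e-05) and in Ncoa6-KO BMDMs from 111 and 86.9 to 237 and 162 (1.00, adjusted p = 0.00164). With LPS + MSU it was lower in Ncoa6-KO BMDMs, by a log2 fold change of -1.35 (SE 0.193, adjusted p = 0.00596), a call lost without Ncoa6-sufficient library 1 (0.0647) or Ncoa6-KO library 2 (0.0665) with LPS + MSU. Its rise in Ncoa6-KO BMDMs was not called with scaling by total counts, at a log2 fold change of 0.37. The β7 chain Itgb7, a partner of α4, was at 1140 to 2079 normalized counts in the 8 libraries.

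**Figure D3:**
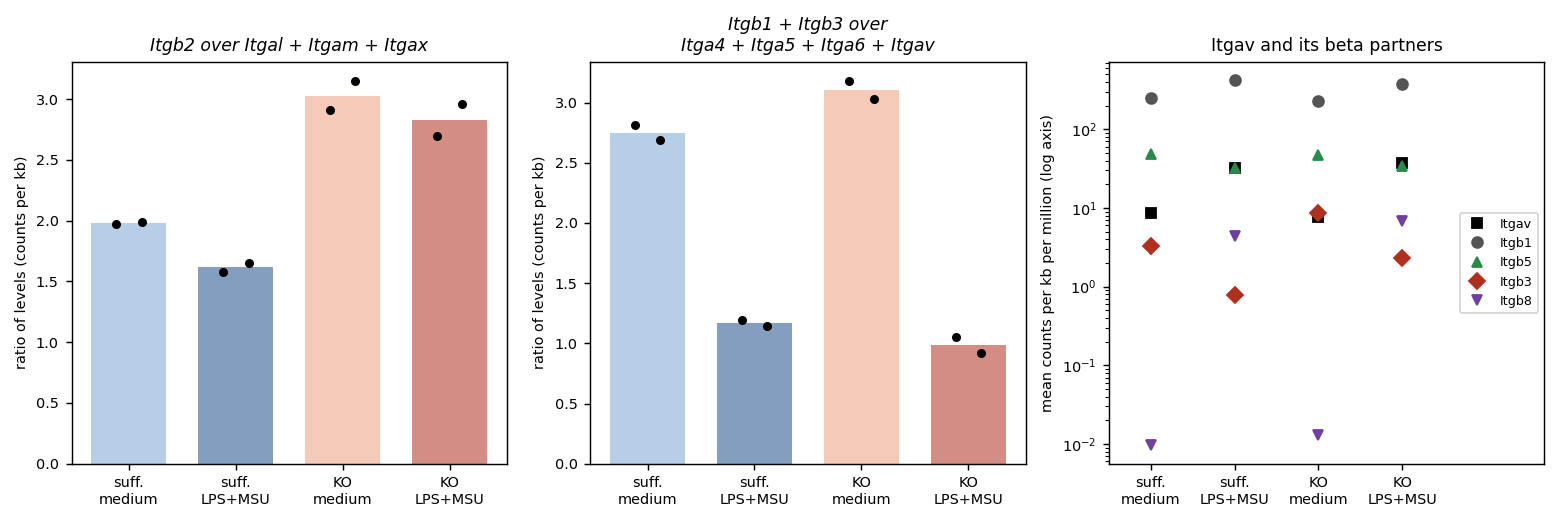
Ratio of the Itgb2 level to the summed levels of its 3 α chains (left), ratio of Itgb1 + Itgb3 to 4 α chains (middle), and mean levels of Itgav and 4 β partners on a log axis (right), per kb of exon, in the 4 groups (suff., Ncoa6-sufficient). Bars and right-hand points are means of 2 libraries and black points in the left and middle panels are libraries. The left ratio is 1.97 and 1.99 in Ncoa6-sufficient and 2.91 and 3.15 in Ncoa6-KO BMDMs in medium.

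The β1 and β3 chains together stood at 2.81 and 2.69 times the summed level of α4, α5, α6 and αv in Ncoa6-sufficient BMDMs in medium and at 3.18 and 3.03 times in Ncoa6-KO BMDMs. With LPS + MSU these ratios were 1.19 and 1.14, and 1.05 and 0.92. Itgb5, Itgb7 and Itgb8, which also pair with αv or α4, are not part of them. With the length of the longest transcript, the ratios were 1.89 to 2.24 in medium and 0.795 to 0.999 with LPS + MSU. The ratio was lower with LPS + MSU in both genotypes, and within the α chains Itga6 went from 27.6% to 36.1% of the summed level in medium to 2.44% to 4.02% with LPS + MSU. Itga5 went from 40.4% to 48.1% of it to 61.4% to 69.7%. With the length of the longest transcript, Itga6 was at 39.2% to 48.8% in medium and 4.12% to 6.62% with LPS + MSU, so the direction did not rest on the length used.

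Of 23 ligands and counter-receptors tested, 11 rose and 1 fell with LPS + MSU in Ncoa6-sufficient BMDMs, where 24.7% of all genes were called higher and 30.5% lower. In Ncoa6-KO BMDMs, 10 rose and 1 fell, against 25.2% and 27.9% of all genes, and 11 and 12 of the 23 were not called in the 2 genotypes. The list had median log2 fold changes of 1.15 and 0.77 against -0.12 and -0.07 over all genes. Icam1, the ligand of LFA-1 and Mac-1, went from 3552 and 3715 to 107640 and 115340 normalized counts in Ncoa6-sufficient BMDMs, and from 3250 and 3168 to 124810 and 127630 in Ncoa6-KO BMDMs, log2 fold changes of 4.94 and 5.30 (adjusted p = 4.73e-10 and 3.02e-10). C3, the source of the Mac-1 ligand iC3b, rose by 5.27 and 6.36 on the log2 scale in the 2 genotypes (adjusted p = 1.31e-09 and 6.05e-10), and Vcam1, the ligand of α4β1, by 4.76 and 5.38 (adjusted p = 1.19e-09 and 6.36e-10). Between the genotypes, 1 of the 23 rose and 2 fell in medium, where 0.573% of all genes were called higher and 1.3% lower. C3 had a log2 fold change of -0.97 (adjusted p = 0.0108) there, Icam2, an LFA-1 ligand, of -0.93 (adjusted p = 0.0229) and Edil3, a ligand of αvβ3, of 0.65 (adjusted p = 0.0209). With LPS + MSU, 1 rose and 3 fell, where 1.96% of all genes were called higher and 1.63% lower. These were Spp1 (osteopontin, bound by αvβ3) at 0.60 and adjusted p = 0.0449, Plaur (the urokinase receptor, which associates with integrins) at -0.86 and adjusted p = 0.00596, Thbs1 (thrombospondin-1) at -0.82 and adjusted p = 0.0422, and Icam2 at -0.76 and adjusted p = 0.0485.

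Of the genes that activate integrins or link them to actin, 27 were tested. With LPS + MSU, 8 rose and 5 fell in Ncoa6-sufficient and 7 rose and 6 fell in Ncoa6-KO BMDMs, so that 13 of 27 were called in each, against 55.2% and 53.1% of all genes. The median log2 fold changes of the list were 0.08 and 0.15, and those of all genes -0.12 and -0.07. Zyx, which encodes zyxin of focal adhesions, rose most, by 2.32 and 2.10 on the log2 scale (adjusted p = 7.01e-07 and 1.69e-06), before Rap1b, the small GTPase of inside-out activation, with 1.67 and 1.61 (adjusted p = 1.93e-07 and 2.7e-07). Lims1 (PINCH-1), which anchors integrin-linked kinase, had 1.21 and 1.3 (adjusted p = 1.1e-06 and 6.72e-07). Rassf5 (RAPL), a Rap1 effector that binds αL, had log2 fold changes of -1.45 and -1.46 (adjusted p = 1.56e-06 and 1.76e-06), and Parvg, the parvin of leukocytes, of -0.66 in each genotype (adjusted p = 0.000906 and 0.00142). Fermt3 (kindlin-3), which activates β2 integrins, fell in Ncoa6-sufficient BMDMs (-0.35, adjusted p = 0.0148), a call lost without library 1 or 2 with LPS + MSU or library 1 in medium (0.0745 to 0.121). Parvb, another parvin, fell in Ncoa6-KO BMDMs (-0.36, adjusted p = 0.0224) and was at -0.25 without a call in Ncoa6-sufficient BMDMs (adjusted p = 0.0895). Its Ncoa6-KO call was lost without library 1 with LPS + MSU or library 2 in medium. It was also lost with DESeq2 (adjusted p = 0.0612) and with only the libraries compared (0.0584). Between the genotypes, Parvg was lower in Ncoa6-KO BMDMs in medium and with LPS + MSU, with log2 fold changes of -0.83 in each (adjusted p = 0.00946 and 0.0104), and Zyx was lower with LPS + MSU (-0.89, adjusted p = 0.0203). They were the 1 and 2 called genes of this list in medium and with LPS + MSU, where 1.88% and 3.59% of all genes were called.

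Of the 26 kinases and adaptors that signal from integrins, 14 rose and 2 fell with LPS + MSU in each genotype, where 24.7% and 25.2% of all genes were called higher and 30.5% and 27.9% lower. The Src family kinases Src and Lyn rose in Ncoa6-sufficient BMDMs, by 4.22 and 2.34 on the log2 scale (adjusted p = 4.44e-09 and 5.23e-08), and Vav2, a guanine nucleotide exchange factor for small GTPases, fell by 2.42 on the same scale (adjusted p = 1.41e-07). In Ncoa6-KO BMDMs, Src and Lyn rose by 4.26 and 2.21 (adjusted p = 3.35e-09 and 8.53e-08), and Vav2 and Cyth4, a member of the cytohesin family, fell, with -1.87 and -0.75 (adjusted p = 9.37e-07 and 0.00026). The kinase Fgr fell in Ncoa6-sufficient BMDMs (-0.92, adjusted p = 0.0293), a call lost without any 1 of the 4 libraries compared (0.0678 to 0.182). Between the genotypes with LPS + MSU, 1 was higher in Ncoa6-KO BMDMs and 5 were lower, where 1.96% of all genes were called higher and 1.63% lower. Src was the higher one, with 0.67 (adjusted p = 0.0258). Among the lower ones were the PI3K subunit Pik3cd with -0.87 (adjusted p = 0.0127), Cyth4 with -0.80 (adjusted p = 0.00725) and Vav3 with -0.71 (adjusted p = 0.0431). Without Ncoa6-sufficient library 1 of the same condition, none of the genes named here for the genotype comparisons stayed called, ligands and actin linkers included, with adjusted p of 0.154 to 0.297 in medium and of 0.0617 to 0.322 with LPS + MSU. The direction of each of these differences was the same without that library. Over all 8 fits that left out 1 library, the LPS + MSU genotype call of Spp1 was lost in 6 (adjusted p of 0.0693 to 0.329), those of Thbs1, Icam2 and Vav3 in 5 each (0.0781 to 0.322, 0.0801 to 0.325 and 0.0629 to 0.301), and that of Src in 4 (0.0657 to 0.227). With only the LPS + MSU libraries in the fit, Zyx, Spp1, Vav3, Icam2 and Thbs1 were not called (adjusted p = 0.0512, 0.066, 0.108, 0.0829 and 0.083). Icam2 was also not called by limma-voom (0.0757), with filterByExpr (0.051) or with total-count scaling (0.0582), Thbs1 by limma-voom (0.0552) or with total-count scaling (0.0593), Vav3 with filterByExpr (0.0505) and Spp1 with DESeq2 size factors (0.0557).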

How the data were processed

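The deposited table holds expected counts per gene, which the authors estimated with RSEM 1.3.3 after alignment of stranded, paired-end poly(A) reads to GRCm38 with STAR 2.7.3a (annotation release 101), not normalized, for 50615 genes in 8 libraries. RSEM divides reads among genes that share sequence. The integrins and the gene lists were chosen with earlier results of these data known. Expected counts were rounded, genes with a summed count under 10 were left out, and the 17625 others were tested in edgeR 4.0.16 (R 4.3.3) with TMM and quasi-likelihood fits of the 4 groups, on 4 residual degrees of freedom. Benjamini-Hochberg adjustment was over all genes, and genes were called at an adjusted p under 0.05. The code was tested on simulated data. Levels per kb used exon unions of GENCODE M21, another annotation of the same assembly. All 10 integrins are named, and from each other pathway list up to 3 called genes with the largest rise and 3 with the largest fall in each comparison, at a mean of at least 50 normalized counts. One gene that this rule names is not reported here. Alternatives were DESeq2 1.42.0 and its size factors, limma-voom (limma 3.58.1), other filters, a stricter call rule, other samples in the fit, the replicate block, another length measure, leaving out each library and, added after the data were seen, scaling by total counts. Depth was 25281955 to 33673552 counts. The p-values rest on the spread between 2 mice per group, which edgeR moderates for each gene with information from the other genes.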

Additional observations from a re-analysis of the deposited data

How the results depend on the processing

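The replicate numbers were not treated as pairs: the sources do not say whether equal numbers are 1 mouse, and the correlations of same-numbered deviations were 0.0418 to 0.353, with 5 of 6 over 0.1. With the replicate block, 5 integrins were called between the genotypes in medium (3 without it), 1023 genes in medium, 1532 with LPS + MSU and 86 for the interaction, against 331, 632 and 0. Itgam and Itgax were the chains gained (adjusted p = 0.00886 and 0.00642 with the block, 0.125 and 0.0833 without), as with DESeq2 (5 integrins, 43 genes for the interaction) and without a filter (5 integrins, 1152, 1611 and 269 genes). An absolute log2 fold change over 1 left 1 integrin in each genotype comparison (147 and 182 genes, and 5726 and 5339 with LPS + MSU against medium). With only the libraries compared, 347 genes were called between the genotypes with LPS + MSU, and Itgam and, in medium, Itga6 were not (adjusted p = 0.0722 and 0.0904). Leaving out 1 library gave 1 to 3 integrins in medium and 0 to 5 with LPS + MSU, of 22 to 351 and 49 to 765 genes, the fewest without Ncoa6-sufficient library 1 of that condition. With scaling by total counts, 20.6% and 21.4% of the genes called for LPS + MSU were higher (44.8% and 47.5% with TMM), and 68.8% between the genotypes with LPS + MSU (54.6%). With DESeq2 size factors these were 51.3%, 51.2% and 46.2%. For LPS + MSU, the replicate block called Itgb2 higher in Ncoa6-KO BMDMs (log2 fold change 0.22, adjusted p = 0.0459). Itgam, Itgax and Itgb2 reversed for LPS + MSU with scaling by total counts, at -0.5226, -0.2741 and -0.4761 in Ncoa6-sufficient and -0.5855, -0.3973 and -0.4093 in Ncoa6-KO BMDMs. Under that scaling, Itgam also lost its call between the genotypes with LPS + MSU (adjusted p = 0.0803). Without 1 library, differences that were not called also changed direction: Itgam for LPS + MSU in Ncoa6-KO BMDMs ranged from -0.03104 to 0.1201, Itgav between the genotypes in medium from -0.4757 to 0.09215 and Itga4 with LPS + MSU from -0.3099 to 0.0177. The interaction ranged from -0.429 to 0.03217 for Itgax, -0.2311 to 0.1084 for Itgal, -0.1112 to 0.2613 for Itga4, -0.1397 to 0.03581 for Itga6, -0.1848 to 0.1303 for Itgb2 (-0.02641 with DESeq2 or its size factors) and -0.2502 to 0.4694 for Itgb3. The causes were not tested.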
